A study of Mus musculus with 6 samples.

Results

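Insulin signalling and the IGF-binding proteins (IGFBPs) were followed in mouse liver through 10 genes: Insr, Irs1, Irs2, Pik3r1, Foxo1, Igfbp1, Igfbp2, Igfbp3, Igfbp4 and Igfbp7. The genes were taken by symbol from the array annotation, which gives them 16 of the 55681 probes that are not controls. The samples were whole livers of male B6C3F1 mice, 7 weeks of age per the labels. All mice received corn oil by gavage daily over 5 days. The oil was given alone to 3 control mice and carried trichloroethylene (TCE, an industrial solvent that the liver metabolizes) at 1000 mg/kg b.w. in 3 TCE mice. RNA of each mouse was hybridized to its own single-colour array. Per the study's methods diet was freely available, and all mice were killed shortly after the last gavage. The time of the last meal was not given in the sources used here. One dose and one time point were measured, and the arrays read mRNA, not protein, phosphorylation or blood insulin.

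Insulin binds a receptor tyrosine kinase on hepatocytes, which recruits the substrates IRS1 and IRS2 and, through them, PI 3-kinase and the kinase AKT. AKT keeps the transcription factor FOXO1 out of the nucleus, so that FOXO1 targets are active in fasting and repressed after a meal. IGFBP1, a secreted protein made mainly by hepatocytes, is a classic target of this kind, and IGFBPs bind the insulin-like growth factors (IGFs) in blood and tissue. Igfbp1 is also known to respond to cell stress and to low amino acid supply.

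The promoters of Igfbp1, Irs1 and Irs2 are shown because they hold the same short sequence, while the log2 differences of the 3 genes are given further on side by side. RefSeq (GRCm38.p6) gave a promoter for 9 of the 10 genes, 11 promoters in all, each of 300 bases, and Insr was not among them. The letters CAAAACAA, the core of the insulin response sequence through which forkhead factors such as FOXO1 are known to act, were searched on both strands. They were present in 1 promoter of each of these 3 genes and in 2.51% of the 32851 promoters of the same length. The 250 bases before the start are printed 5′ to 3′ along the gene, with the core in capitals. It lies from 108 to 101 bases before the start in Igfbp1 on the gene's strand, and on the opposite strand, where it reads TTGTTTTG, from 33 to 26 bases before the start in Irs1 and from 38 to 31 in Irs2.
Igfbp1 (chr11:7197537-7197786, plus strand): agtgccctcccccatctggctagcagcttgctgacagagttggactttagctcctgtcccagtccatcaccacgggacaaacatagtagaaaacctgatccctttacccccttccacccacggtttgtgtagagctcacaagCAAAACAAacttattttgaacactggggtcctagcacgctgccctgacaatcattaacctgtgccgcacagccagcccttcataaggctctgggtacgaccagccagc
Irs1 (chr1:82291440-82291689, minus strand): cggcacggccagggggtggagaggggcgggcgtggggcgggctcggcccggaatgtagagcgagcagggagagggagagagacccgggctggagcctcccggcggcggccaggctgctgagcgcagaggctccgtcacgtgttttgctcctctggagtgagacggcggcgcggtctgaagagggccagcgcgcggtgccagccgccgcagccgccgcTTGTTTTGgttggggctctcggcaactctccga
Irs2 (chr8:11008930-11009179, minus strand): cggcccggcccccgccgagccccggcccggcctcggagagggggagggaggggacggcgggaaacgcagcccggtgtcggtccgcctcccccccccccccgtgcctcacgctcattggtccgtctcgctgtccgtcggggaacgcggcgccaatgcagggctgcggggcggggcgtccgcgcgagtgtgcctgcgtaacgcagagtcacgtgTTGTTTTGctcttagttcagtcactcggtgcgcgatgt
The core is a match of letters and was not tested as a binding site. GTAAACA, another forkhead sequence, which 3.65% of all promoters hold, was not found in the 11 promoters on either strand.

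Signals are given as log2 of the scanner intensity after quantile normalization, and a difference of 1 on this scale is a 2-fold change. To be tested, a probe had to be well above background in every mouse of one group or of both, as 22731 probes of the array were. Of the 16 probes 14 passed, so that 9 of the 10 genes could be tested. Each gene is represented by its brightest tested probe. Levels of different genes are not compared, since probes differ in how brightly they report the same amount of RNA. The fit was limma over all 22731 probes with Benjamini-Hochberg adjustment, and the threshold was a 2-fold change together with an adjusted p no higher than 0.05. Of all probes tested 1.41% were past it. With a single probe per gene it was 1.73% of the 13284 genes tested, of which 1.3% of genes were higher and 0.429% lower in the TCE mice. The labelled tissue was borne out by hepatocyte markers, with 5 of 5 on the array detected in every mouse. The markers of fat (Adipoq, Plin1, Cfd and Lep) were not detected. Of 4 pancreas markers 2 were detected, and Prss2 and Pnlip were not. Cela1 was well above background in 2 control and 3 TCE mice, and Ins2 in 3 control and 2 TCE mice. Between 23538 and 24968 probes per array were well above background, and 0 spots were saturated. The number of arrays limits the precision. The other 5 arrays shared a slide and a scan, which control mouse 1 did not share with them.

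Of the 9 genes tested, Igfbp1 rose in the TCE mice, and 8 did not pass the test in either direction. Igfbp1 was also the sole member at an adjusted p of 0.05 or less when the fold change was left aside, a level that 2.39% of all tested genes reached. The differences in log2 signal between the groups were above 0 for 4 of the genes and below 0 for 5, with a median of -0.02, beside 0.02 over all genes tested. The groups did not overlap for Igfbp1, Igfbp2, Foxo1 and Irs1, that is for 4 of 9 genes, beside 27.9% of all tested genes. An exact permutation test of a single gene (two-sided) gives p = 0.1 for such a separation, the smallest that 3 mice against 3 allow.

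**Figure D1:**
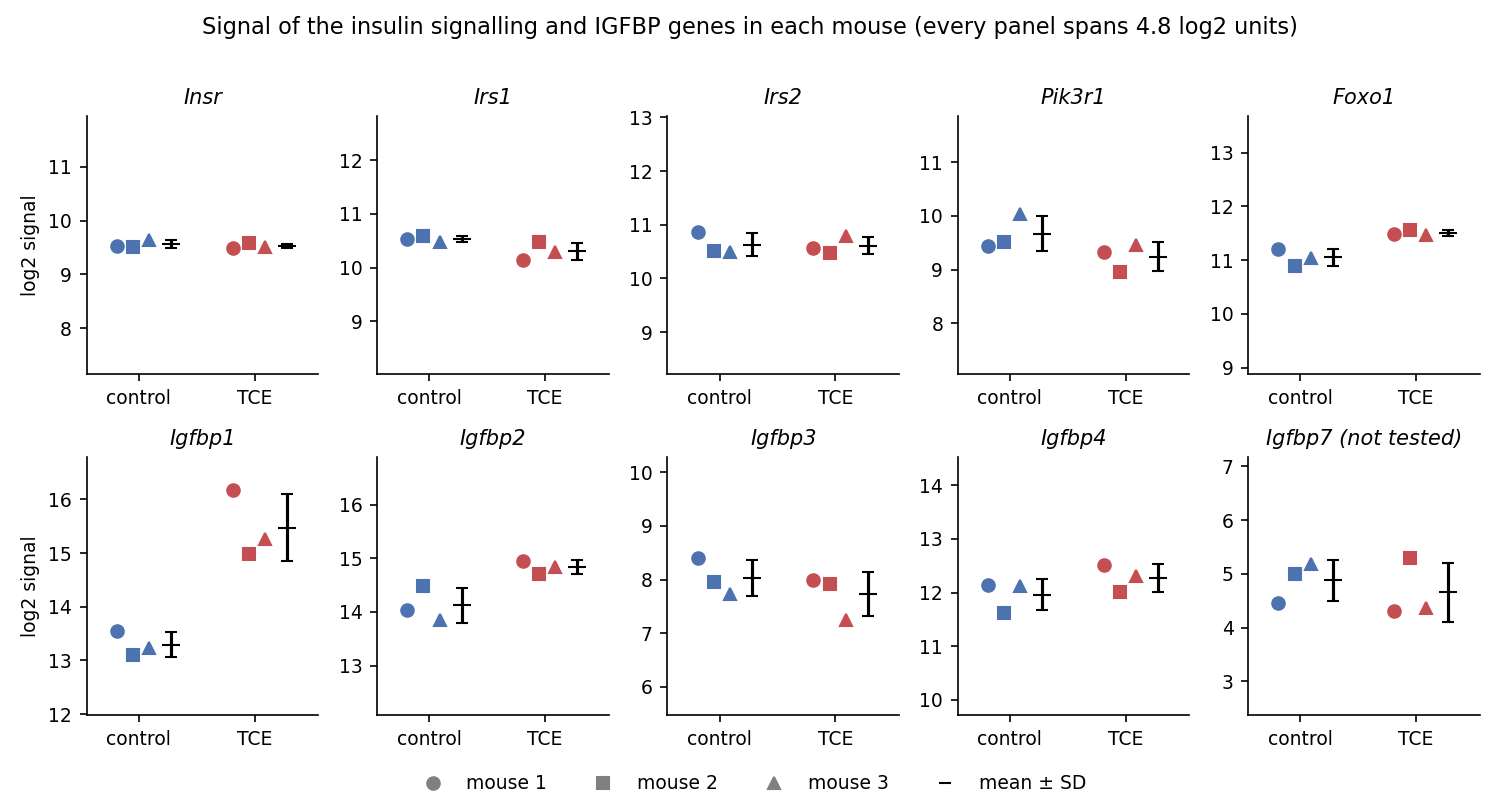
Log2 signal (vertical axis, each panel spanning the same range) of the brightest probe of each gene in 3 control mice (blue) and 3 TCE mice (red), with symbols for mouse 1, 2 and 3 and the mean ± SD in black. The TCE mice lie between 14.99 and 16.17 for Igfbp1, all above the control mice, whereas for Insr and Irs2 the groups lie over each other.

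Igfbp1 (NM_008341) was measured by a probe on chromosome 11 from 7102442 to 7102501 of mm9. Its log2 signal was 13.55, 13.10 and 13.23 in control mice 1, 2 and 3, and 16.17, 14.99 and 15.26 in TCE mice 1, 2 and 3. Every TCE mouse was above every control mouse, and TCE mouse 1 was the highest. The means were 13.29 ± 0.23 in control mice and 15.47 ± 0.62 in TCE mice (SD, n = 3 each). The log2 fold change was 2.18 (SE 0.32, 95% interval 1.42 to 2.95, limma adjusted p = 0.0301). This is a 4.53-fold rise, with an interval of 2.67 to 7.70, and its size was at the percentile 99.3 of the absolute changes of all genes tested.

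The size of the Igfbp1 rise held better than its call. When single mice were left out, the log2 fold change lay between 1.84 and 2.42. The limma adjusted p was above 0.05 without control mouse 1 (0.0879), control mouse 2 (0.127), control mouse 3 (0.110) or TCE mouse 3 (0.0719), and it stayed below without TCE mouse 1 (0.0309) or TCE mouse 2 (0.0430). Within the shared slide, that is without control mouse 1, the log2 fold change was 2.32, and with the slide as a block it was 2.31 (adjusted p = 0.0830). The methods' t-test on the same values gave an unadjusted p of 0.00465, within the study's limit of 0.05, and an adjusted p of 0.124.

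**Figure D2:**
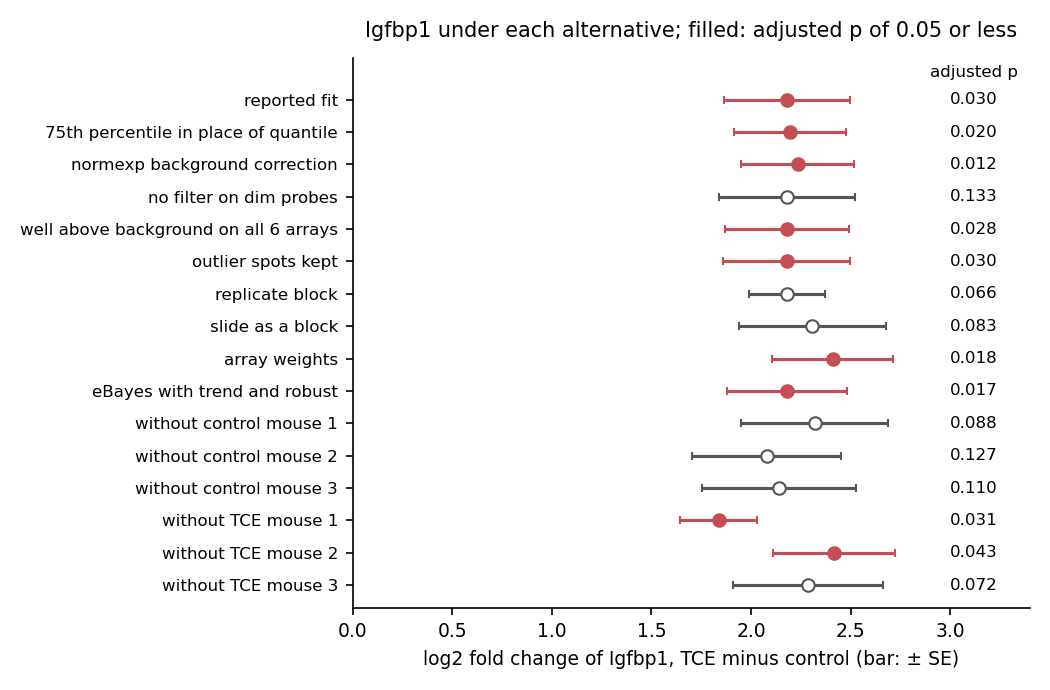
Log2 fold change of Igfbp1 (horizontal axis, TCE minus control, bars are ± SE) in the reported fit and under each alternative listed on the vertical axis, with the limma adjusted p at the right and filled red points where it is 0.05 or less. The change stays between 1.84 and 2.42 while 7 of the 15 alternatives have an adjusted p above 0.05.

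Igfbp2, which encodes another IGF carrier secreted by the liver, was higher in each TCE mouse than in any control mouse but did not pass the test. The brighter of its probes (NM_008342, chromosome 1 from 72898813 to 72898872 of mm9) had a log2 signal of 14.04, 14.48 and 13.85 in control mice 1, 2 and 3 and of 14.96, 14.70 and 14.84 in TCE mice 1, 2 and 3. The gap between the highest control mouse and the lowest TCE mouse was small. The means of 14.12 ± 0.32 and 14.83 ± 0.13 (SD, n = 3 each) differed by 0.71 with a standard error of 0.19 and a 95% interval of 0.26 to 1.16 (limma adjusted p = 0.128). The further Igfbp2 probe, from 72898677 to 72898736, gave a difference of 0.64 (adjusted p = 0.0967), again without overlap.

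Igfbp4, whose product mostly holds IGFs inactive, had log2 signals of 12.14, 11.63 and 12.12 in control mice and of 12.51, 12.00 and 12.31 in TCE mice, in the order of mouse 1, 2 and 3. The groups overlapped, since TCE mouse 2 was below 2 of the control mice. The difference was 0.31 with a 95% interval of -0.17 to 0.80 (limma adjusted p = 0.472). Igfbp3, which carries most IGF of the blood in a complex with the acid-labile subunit, had log2 signals of 8.40, 7.95 and 7.74 in control mice and of 7.99, 7.92 and 7.26 in TCE mice. TCE mouse 3 was the lowest and the others lay within the control range. The difference was -0.30 with an interval of -0.93 to 0.33 (limma adjusted p = 0.593), and it was -0.07 without TCE mouse 3. The further Igfbp3 probe did not rise above background in any of the mice and was not tested.

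Igfbp7 encodes a secreted protein related to the IGFBPs that is made largely by endothelial and stromal cells. Its probe was near the limit of detection and was not tested. The log2 signal was 4.45, 5.00 and 5.18 in control mice 1, 2 and 3 and 4.31, 5.30 and 4.37 in TCE mice 1, 2 and 3. It was well above background in control mice 2 and 3 and in TCE mouse 2, so no difference between the groups can be read from it.

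Insr encodes the insulin receptor itself. Its brightest probe (NM_010568, chromosome 8 from 3151667 to 3151726 of mm9) had a log2 signal of 9.52, 9.51 and 9.65 in control mice and of 9.50, 9.58 and 9.51 in TCE mice. The groups lay over each other, with a difference of -0.03 and a 95% interval of -0.29 to 0.23 (limma adjusted p = 0.912), which excludes a change of 2-fold in either direction under this model. The other probes of Insr gave 0.17 and -0.11, and neither passed the test.

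Irs1 and Irs2 encode the docking proteins that pass the signal from the receptor to PI 3-kinase. The brighter Irs1 probe had log2 signals of 10.52, 10.60 and 10.48 in control mice and of 10.15, 10.47 and 10.29 in TCE mice. All TCE mice were below all control mice, though TCE mouse 2 only just. The difference of -0.23 had a 95% interval of -0.54 to 0.07 (limma adjusted p = 0.396), and the dimmer probe, whose groups overlapped, also gave -0.23. Irs2 had log2 signals of 10.87, 10.52 and 10.50 in control mice and of 10.57, 10.47 and 10.78 in TCE mice. The groups overlapped and differed by -0.02, with an interval of -0.40 to 0.35 (limma adjusted p = 0.961). Igfbp1, Irs1 and Irs2, whose promoters above share the CAAAACAA core, thus had log2 differences of 2.18, -0.23 and -0.02.

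Pik3r1 encodes p85alpha, the regulatory subunit through which PI 3-kinase is bound to the IRS proteins. Its log2 signal was 9.44, 9.52 and 10.04 in control mice and 9.32, 8.95 and 9.46 in TCE mice. TCE mouse 3 lay within the control range. The difference was -0.42, with a 95% interval of -0.94 to 0.09 (limma adjusted p = 0.366).

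Foxo1, the transcription factor at the end of the chain, was higher in each TCE mouse than in any control mouse on both of its probes but did not pass the test. The brighter probe, NM_019739 on chromosome 3 from 52150183 to 52150242 of mm9, is given because it is the sole intracellular component of the 10 genes whose groups separated on every probe.
Foxo1 probe: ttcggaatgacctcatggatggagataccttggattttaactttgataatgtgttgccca
It had log2 signals of 11.22, 10.90 and 11.04 in control mice and of 11.49, 11.56 and 11.47 in TCE mice. The TCE mice lay closer together than the control mice. The means of 11.05 ± 0.16 and 11.50 ± 0.05 (SD, n = 3 each) differed by 0.45 with a standard error of 0.12 and a 95% interval of 0.15 to 0.76 (limma adjusted p = 0.139). The further probe, from 52153289 to 52153348, gave 0.47 (adjusted p = 0.196). Over the alternatives the difference of the brighter probe lay between 0.38 and 0.54 and its adjusted p between 0.0848 and 0.376.

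**Figure D3:**
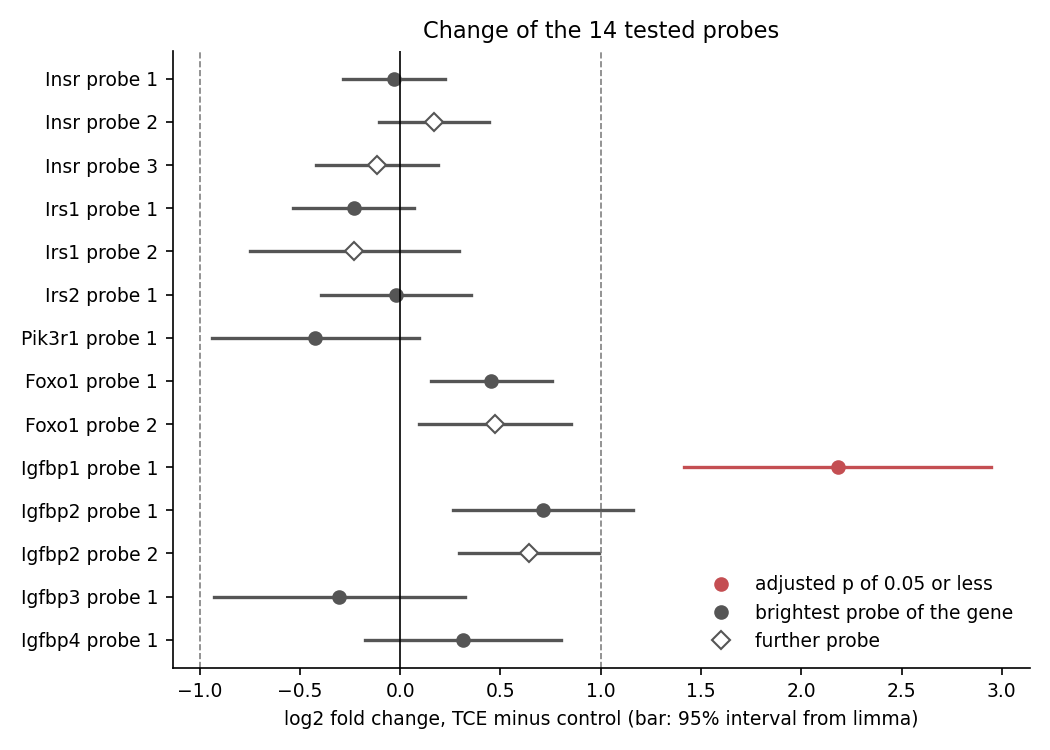
Log2 fold change (horizontal axis, TCE minus control) of the 14 tested probes with 95% intervals from limma; circles are the brightest probe of a gene, open diamonds further probes, and dashed lines mark a 2-fold change. Igfbp1 lies at 2.18, apart from the others, and the probes of Foxo1 and of Igfbp2 lie above 0 in pairs.

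The mice of a group did not keep the same order across the genes. TCE mouse 1 had the highest signal of the TCE mice for Igfbp1, Igfbp2 and Igfbp4 and the lowest for Irs1, whereas TCE mouse 2 was the highest for Foxo1 and the lowest for Pik3r1. By Pearson's r of the log2 signal over the 6 mice, given as a description, the genes most like Igfbp1 were Vps18 (r = 0.996), Hspb8 (0.995) and a probe that the array names Clhc1 (0.994), whose accession RefSeq gives to Aunip. The last was well above background in 0 of the control mice, so that its r rests on background values there. The 6 points lie in 2 separate groups of mice and were searched over 13284 genes, so that r is no measure of a relation within a group.

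Among the further components of the pathway 0 of 4 tested ligands and receptors passed the test. Over all genes tested 1.73% were past the threshold, so a count of 0 does not set lists of this size apart. Igf1, the main circulating growth factor made by the liver, had log2 signals of 15.43, 15.30 and 15.22 in control mice and of 14.68, 14.95 and 14.81 in TCE mice. The groups did not overlap, and the difference was -0.50 (limma adjusted p = 0.117). Igf2r, which clears IGF2, differed by -0.35 (adjusted p = 0.212). Ins1, Igf2 and Insrr were not detected, whereas Ins2 was, and it differed by -0.20 (limma adjusted p = 0.868). Of the adaptors, PI 3-kinases and kinases of the AKT and mTOR chain 0 of 24 passed, with a median log2 difference of -0.04. The largest were those of Irs4, at -0.93 (adjusted p = 0.305), and Rictor, a subunit of mTOR complex 2, at 0.43 (adjusted p = 0.162). Of the inhibitors of insulin signalling 0 of 14 passed, with a median of 0.04. The largest differences were those of the receptor-binding adaptors Grb10, at -0.75 (adjusted p = 0.267), and Grb14, at -0.71 (adjusted p = 0.579). Grb10 was well above background in 3 control mice and 1 TCE mouse, so its difference rests partly on background values. In Grb14 the TCE mice ranged from 9.42 to 11.88, on both sides of all control mice.

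The change in the carriers outside the 10 genes was a fall of Igfals, the acid-labile subunit that holds IGF1 and IGFBP3 in their circulating complex. Its log2 signal was 11.92, 11.80 and 11.56 in control mice and 10.74, 10.72 and 10.43 in TCE mice. All TCE mice were below all control mice, and the mean fell by 1.13 on the log2 scale (SE 0.15, limma adjusted p = 0.0251). None of the 6 fits with a mouse left out kept the call, while the log2 fold change stayed between -1.23 and -1.03. It was also lost without the filter on dim probes (adjusted p = 0.0944) and with the slide as a block (0.0839). Over all genes tested 0.429% were past the threshold and lower in the TCE mice. Igfals was 1 of 5 tested genes of the list of other carriers, IGFBP proteases and their inhibitors, whose median log2 difference was -0.16. That median has no settled sign, as it was 0.08 without control mouse 3, 0.07 without TCE mouse 3 and -0.40 without TCE mouse 2. Igfbp5 and Igfbp6 differed by -0.16 and 0.03, and neither passed. The protease genes Pappa and Pappa2 and their inhibitors Stc1 and Stc2 were not detected.

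Of the 12 genes that FOXO1 is known to activate or insulin to repress, Pdk4 rose and 11 did not pass the test. Over all genes tested 1.3% were past the threshold and higher in the TCE mice. The median log2 difference of the list was 0.19. Pdk4, a kinase that turns off pyruvate dehydrogenase and is also a known target of PPARalpha, had log2 signals of 7.47, 7.15 and 7.17 in control mice and of 10.51, 10.52 and 9.63 in TCE mice. It rose 7.77-fold, or by 2.96 on the log2 scale (SE 0.27, limma adjusted p = 0.00657), and the call was kept with each mouse left out but lost without the filter on dim probes (adjusted p = 0.0572). The gluconeogenic genes G6pc and Pck1, both known to be repressed by insulin, differed by 0.39 and 0.26 (adjusted p = 0.343 and 0.669). Ccng2, a cell cycle gene known to be activated by FOXO factors, was the nearest to the threshold at 0.98 (adjusted p = 0.0593).

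Of the 11 genes that insulin is known to induce, all of them lipid and glucose enzymes or their regulators, 3 rose and 0 fell. All 11 differences were above 0, as were 7057 of 13284 over all genes tested, and the median was 0.77. Of all genes tested 1.3% were past the threshold and higher in the TCE mice. Scd1, a fatty acid desaturase, rose 3.44-fold (limma adjusted p = 0.00615), and Me1, which supplies NADPH, rose 2.53-fold (0.0261). Pnpla3 rose at least 4.44-fold, given as a limit since its control signals were not well above background. It entered the test only through the TCE mice, all of which were above background. Its limma adjusted p of 0.0252 belongs to the signals as measured, not to the limit. That limit holds for the scanner's processed signal alone. With normexp background correction, which adds an offset to every signal, the log2 fold change of Pnpla3 was 1.19 (adjusted p = 0.0232). The calls of Me1 and Pnpla3 were each lost in 5 of the 6 fits with a mouse left out, without the filter on dim probes (adjusted p = 0.106 and 0.119) and with the slide as a block (0.0914 and 0.0519). Srebf1, the factor through which insulin acts on these genes, differed by 0.25 (adjusted p = 0.432). The list of genes that FOXO1 activates or insulin represses and the list of genes that insulin induces both held members that rose, next to members that did not pass. Whether insulin or another regulator of these genes had a part in the rises was not tested.

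**Figure D4:**
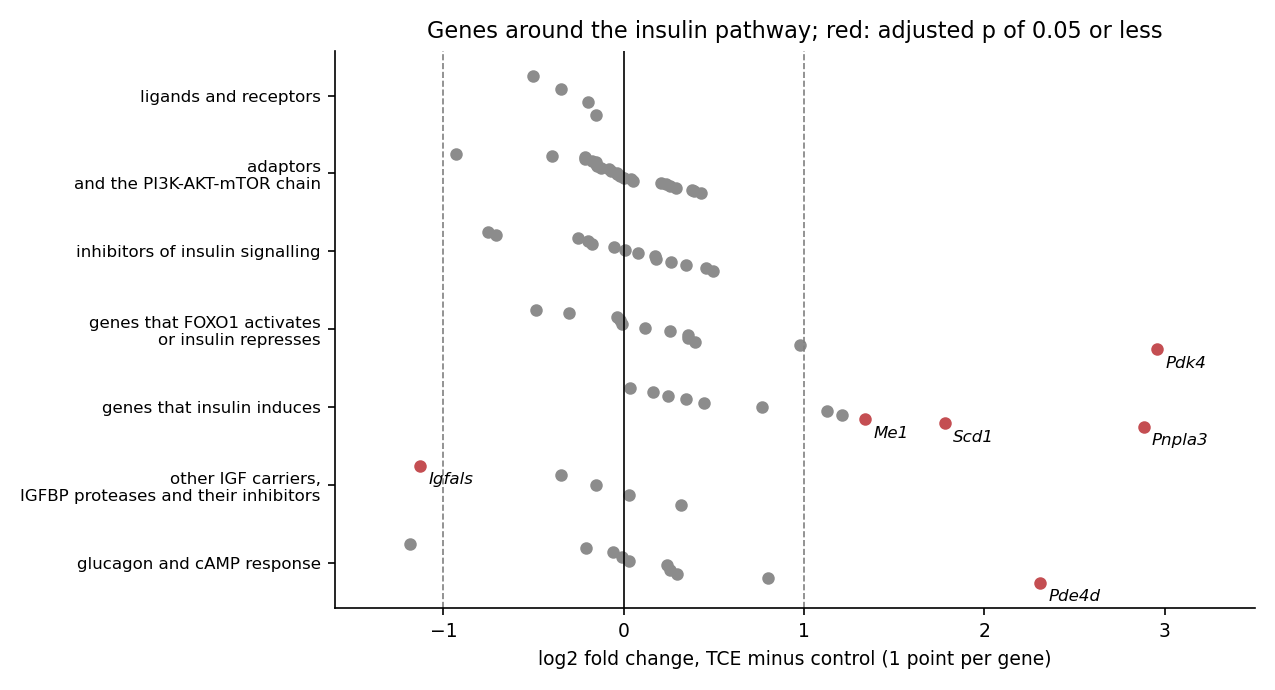
Log2 fold change (horizontal axis, TCE minus control) of every tested gene in 7 lists around the insulin pathway (vertical axis), 1 point per gene, red and named where the limma adjusted p is 0.05 or less; dashed lines mark a 2-fold change. The lists of receptors, adaptors and inhibitors hold no red point, and 2.39% of all genes tested reached that adjusted p. All 11 genes that insulin induces lie above 0, as do 7057 of the 13284 genes tested. Pnpla3 and Pde4d are drawn at their measured values, not at their lower limits.

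Of the 10 genes of the glucagon and cAMP response, Pde4d, a phosphodiesterase that breaks down cAMP, passed the test. By its group means it rose at least 2.41-fold, a limit without sampling error, from control signals that were not well above background. It entered the test only through the TCE mice, all of which were above background. Its limma adjusted p of 0.0215 belongs to the signals as measured, not to the limit. That limit again holds for the processed signal alone, since with normexp the log2 fold change was 0.76 (adjusted p = 0.0423), short of 2-fold. The call was also lost in 4 of the 6 fits with a mouse left out, without the filter on dim probes (adjusted p = 0.107) and with the slide as a block (0.0712). The other 9 did not pass, and over all genes tested 1.3% were past the threshold and higher in the TCE mice. Among the 9, Pde4b, another phosphodiesterase, differed by -1.19 without overlap of the groups (limma adjusted p = 0.186). The median log2 difference of the list was 0.14, and Gcgr, the glucagon receptor, differed by -0.21 (adjusted p = 0.459).

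In whole liver, fewer cells of a type and less RNA per cell cannot be told apart. All 8 markers of sinusoidal endothelium had differences below 0, with a median of -0.20 and 0 past the threshold. All 6 Kupffer cell markers did too, with a median of -0.14. Over all genes tested 6227 of 13284 differences were below 0. Of 8 stellate cell markers 6 were below 0, with a median of -0.26. Among them Lrat differed by -1.35 (limma adjusted p = 0.0676) and Ngfr by -0.97 (adjusted p = 0.0738), both without overlap of the groups, and Reln by -1.34 with overlap (adjusted p = 0.368). The signals of each list were also summed on the linear scale in each mouse, and the log2 of the sum was taken. For the endothelial markers it ranged from 14.93 to 14.95 in control mice and from 14.11 to 15.04 in TCE mice. For the Kupffer markers the ranges were 14.52 to 14.70 and 14.43 to 14.78. For the stellate markers they were 14.71 to 15.29 and 14.86 to 15.13, a sum carried mostly by the bright Dcn probe (difference 0.01). Their part in the values of Igfbp3, Igfbp4 and Igfbp7 was not tested. The 5 hepatocyte markers had a median difference of -0.18. Any part of hepatocyte content in the value of Igfbp1 was not tested.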

How the data were processed

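Total RNA of 6 livers, 1 array per mouse, was labeled with Cy3 by the authors and hybridized to the Agilent mouse 8x60K array. The deposited scanner files, made with Feature Extraction 10.7.1.1, hold for each spot an intensity from which the scanner software had taken the background and spatial trends. The authors also deposited a table with quantile-normalized log2 means of each group, which was used for gene symbols and as an alternative. Its 6 columns of detection flags were not used. Spots flagged as outliers (123 to 189 per array) were left out, log2 intensities were averaged by probe with no pseudocount, and arrays were quantile normalized, as in the study's methods. A probe counted as well above background when most of its spots were. The group means obtained lay within 0.01 of the deposited ones for 99.99% of probes.

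Groups came from the labels. The test was that of limma 3.58.1 (R 4.3.3), two-sided, with group as the only factor, and it was tested on simulated data. The methods name a t-test with quantile normalization, and it was run as an alternative. Other alternatives were the normalization, background correction, filter, outlier spots, blocks, weights, variance model, each mouse left out and the rule for several probes. The brightest tested probe stood for a gene. A gene not above background in any control mouse has its fold change as a lower limit, against the lowest signal well above background on each array or its own signal where higher. This limit is taken on the group means and holds no sampling error. Named are all 10 genes, in each list those at an adjusted p of 0.05 or less or else the largest 2 differences, and 3 genes most like Igfbp1. Igfbp5, Igfbp6, G6pc, Pck1, Ccng2, Srebf1, Gcgr, Pde4b, Ins2, Cela1 and undetected genes were named after their values were seen. The members, lists and markers were chosen with earlier results of these data known. One gene of a list is not reported here by name. Probe positions are on mm9 and promoters on GRCm38.p6. No mm9 gene annotation was used, so the exon of a probe is not given.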

Additional observations from a re-analysis of the deposited data

How the results depend on the processing

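With 3 mice a group, the number of arrays limits the precision. Igfbp1 was past the threshold in the reported fit, at a log2 fold change of 2.18, and 8 of 15 alternatives with a test kept it there. No other of the 9 genes was past the threshold under any of them. The number of the 9 genes past the threshold, and of those at an adjusted p of 0.05 or less, was 0 without the filter on dim probes and 0 with the slide as a block, and ranged from 0 to 1 with a mouse left out. With the methods' t-test after Benjamini-Hochberg adjustment it was 0. Over all probes the count past the threshold was 321. It was 96 without the filter, where more probes were tested, 177 with the slide as a block, 594 with the unadjusted t-test, 35 with the adjusted t-test and between 114 and 245 with a mouse left out. The cause of these shifts was otherwise not tested. Foxo1 and Igfbp2 kept their direction in every alternative and did not reach an adjusted p of 0.05 in any.

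Differences close to 0 changed sign. That of Insr was 0.029 with arrays scaled to their 75th percentile, 0.040 with normexp background correction and 0.009 as the mean of all detected probes, and ranged from -0.056 to 0.013 with a mouse left out, being above 0 without control mouse 3. That of Irs2 was 0.042 with the 75th percentile, 0.099 with the slide as a block and 0.021 with array weights, and ranged from -0.108 to 0.099 with a mouse left out, being above 0 without control mouse 1 or TCE mouse 2. The 75th percentile moved the median of all genes to 0.05 and that of the adaptors and kinases to 0.012. With a mouse left out, list medians ranged from -0.072 to 0.014 for the adaptors and kinases, from -0.45 to -0.18 for ligands and receptors, from 0.11 to 0.21 for genes that FOXO1 activates or insulin represses from 0.011 to 0.303 for the glucagon and cAMP response and from -0.40 to 0.08 for the other carriers and proteases. The differences of Igfbp3, Igfbp4 and Pik3r1 kept their sign and ranged from -0.45 to -0.07, from 0.15 to 0.45 and from -0.54 to -0.24. Pnpla3 and Pde4d were not tested where all 6 arrays had to be above background.

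Control and TCE mice carry the same replicate numbers. Deviations of same-numbered mice from their group means correlated at 0.09, 0.007 and -0.09, and not every mouse correlated best with its own number, so the numbers were not taken as a pairing. With the replicate number as a block 63 probes and 0 of the 9 genes were past the threshold, and 0 of the 9 were at an adjusted p of 0.05 or less. The log2 fold change of Igfbp1 under the block was 2.18 (limma adjusted p = 0.0662). The block also ended the calls of Scd1 (0.0663), Me1 (0.126), Pnpla3 (0.0931) and Igfals (0.0853), while Pdk4 (0.0431) and Pde4d (0.0247) stayed below 0.05.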
